A study of Mus musculus with 8 samples.

Results

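Dax1KO ESCs were profiled by RNA-seq in both culture media of the study. They make up 4 of its 8 libraries, chosen by their labels: 2 libraries of cells kept in 2i/LIF and 2 of cells kept in LIF/serum. The other 4 libraries are control ESCs in the same media, and they enter the fit and the last comparison. Mouse ESCs were grown on gelatin, all at passage 3. The 2i/LIF medium was N2B27 with 1 µM PD0325901, an inhibitor of the ERK kinase MEK, 3 µM CHIR99021, an inhibitor of GSK3, and 10 ng/ml LIF. The LIF/serum medium was DMEM with 15% FBS, GlutaMAX, nonessential amino acids, β-mercaptoethanol and 10 ng/ml LIF. The media share LIF and differ in base medium, serum and both inhibitors at once, so these components cannot be told apart.

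Dax1, encoded by Nr0b1 on the X chromosome, is an orphan nuclear receptor that lacks a DNA-binding domain of the usual kind and represses transcription together with other nuclear receptors. The Dax1KO line carries Cas9 and guide RNA aimed near the translation start codon, delivered by lentivirus with zeocin selection. The study's methods give 1 guide sequence, and a figure legend describes a dual guide cassette. Colonies were picked and expanded in 2i/LIF and cells were then transferred to LIF/serum, in which, by the study's description, they cannot be kept in long culture. The study describes its functional experiments as made with cells of 1 colony, and the labels do not name the colony of the sequenced cells. The labels do not say that the libraries of a group came from separate cultures, so p-values measure the spread between these libraries, which may be technical.

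In 2i/LIF, block of MEK silences the output of FGF and ERK signalling and block of GSK3 stabilises β-catenin, which relieves repression by Tcf7l1. ESCs in this medium are known as naive or ground state cells, with low DNA methylation. Serum carries growth factors and BMPs, and ESCs in LIF/serum are known as a mixture in which naive, formative and lineage-biased cells coexist.

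Total counts lay between 37048280 and 37286251 in the 4 Dax1KO libraries and between 35911384 and 37155910 in the 4 control libraries, and TMM scaling factors between 0.960 and 1.04. Nr0b1 (chromosome X) had 0 counts in both Dax1KO libraries of 2i/LIF and 14 and 6 counts in those of LIF/serum. Control cells held 300.1 to 457 normalised counts of it in 2i/LIF and 5001 to 5402 in LIF/serum, so the target gene was near absent in all 4 libraries labelled Dax1KO. Of the neighbours of Nr0b1, Gk, a glycerol kinase, was 2.07-fold higher in 2i/LIF Dax1KO cells and Tab3, an adaptor of the kinase TAK1, gave 2197 and 2200.1 against 2009 and 1937 normalised counts and did not pass the test. The ESC markers Pou5f1, Sox2, Nanog, Zfp42 and Sall4 were present in each of the 4 Dax1KO libraries, the lowest value being 2752 normalised counts of Sall4. Normalised counts are counts scaled by TMM to a common library size. Markers of fibroblasts summed to 1957 and 1973 normalised counts in 2i/LIF and 2050.1 and 2208 in LIF/serum over 7 tested of 12 listed genes, with the collagen gene Col3a1 at 0 in all 4 Dax1KO libraries. Of these 7, Lum and Postn were higher in 2i/LIF and Col1a2 lower, all below 100 normalised counts, and Col1a2 did not pass without any 1 of the 4 libraries (adjusted p up to 0.101). Markers of blood cells summed to 77.8 and 105 normalised counts in 2i/LIF and 202 and 169.7 in LIF/serum over 4 tested of 6 listed genes, with Ptprc (CD45) at 0 counts in both 2i/LIF libraries and at 15 and 0 in LIF/serum. Of these 4, Cd79a and Itgam were lower in 2i/LIF and 0 were higher, Cd79a not without 2i/LIF replicate 1 (adjusted p = 0.0556), and the part of such cells in the results was not tested.

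The medium changed a large part of the transcriptome of Dax1KO cells. A DEG was a gene with an adjusted p of at most 0.05 by edgeR's quasi-likelihood test and a fold change of at least 1.2. Of 20749 genes tested, 3148 (15.2%) were higher in 2i/LIF and 2851 (13.7%) were lower. With a fold change of at least 2, 1804 (8.69%) were higher and 1776 (8.56%) lower. The libraries of the media did not overlap for 14298 genes (68.9%). Without any 1 of the 4 Dax1KO libraries, the 5999 DEGs fell to between 2986 and 3691, the fewest without 2i/LIF replicate 2 and the most without LIF/serum replicate 2. The median log2 fold change of autosomal genes ran from -0.071 on chromosome 7 to 0.099 on chromosome 1, and was 0.055 on chromosome 6, beside 0.014 over all genes. On chromosome 7, 175 of 1703 genes were higher and 307 lower, and on chromosome 1, 213 of 1225 were higher and 127 lower. In the following, log2 fold changes are 2i/LIF over LIF/serum with their SE, values are normalised counts in replicates 1 and 2, and the counts of list members stand beside the 15.2% and 13.7% of all genes.

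**Figure D1:**
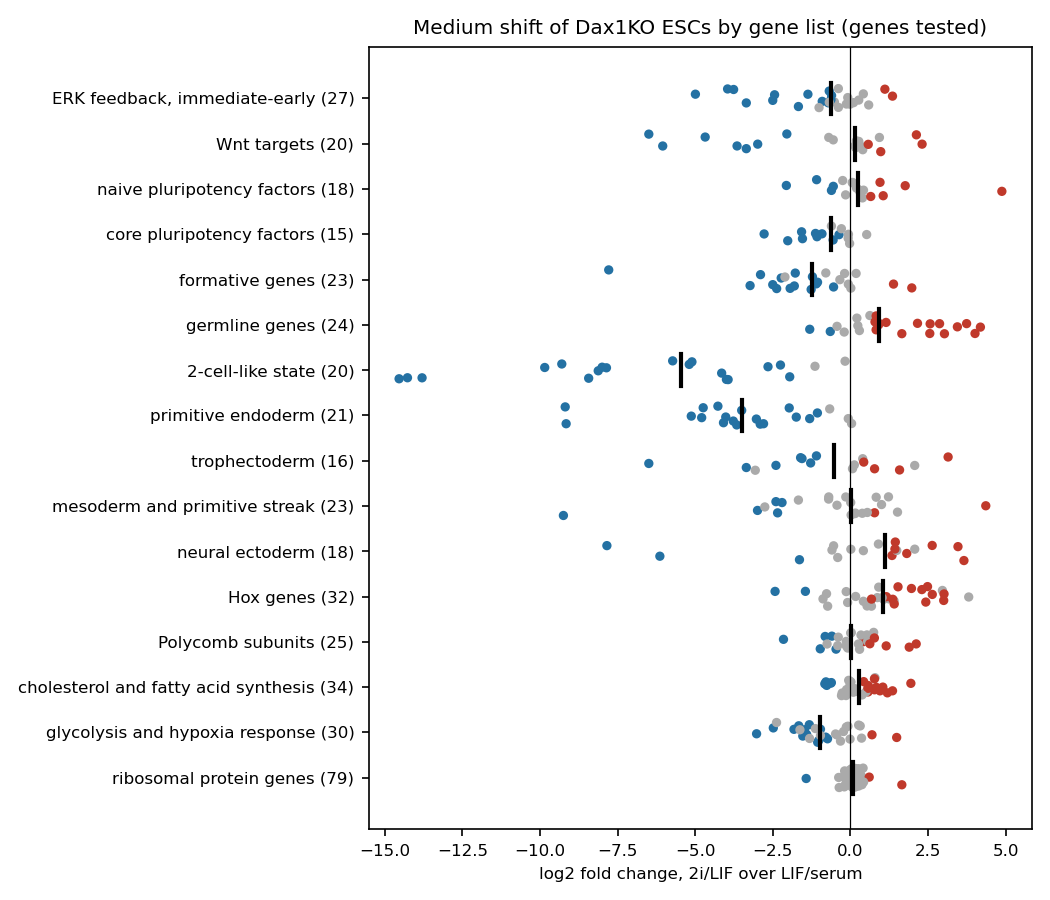
Log2 fold change (2i/LIF over LIF/serum, Dax1KO ESCs) of every tested member of 16 gene lists, 1 point a gene, with DEGs filled in red (higher in 2i/LIF) or blue (lower) and other genes in grey. The black bar is the list's median. The medians of primitive endoderm and 2-cell-like genes, -3.50 and -5.46, lie lowest in this plot, and the values of germline genes run from -1.31 to 4.19.

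Of the genes downstream of ERK, more were lower than higher in 2i/LIF Dax1KO cells. Of the 27 tested members of a list of ERK feedback and immediate-early genes, 13 were lower in 2i/LIF, 2 were higher and 12 did not pass, with a median log2 fold change of -0.62. Dusp6, the phosphatase that inactivates ERK, had 89.5 and 129 normalised counts in 2i/LIF and 1714 and 1252 in LIF/serum. The media did not overlap (log2 -3.76 ± 0.24, adjusted p = 4.87e-05). Spry4, a feedback inhibitor of receptor tyrosine kinase signalling, had 256 and 376 against 11527 and 8610.5. It was 31.8-fold lower in 2i/LIF. Egr1, an immediate-early transcription factor, had 58.4 and 57.7 against 1333 and 471. Its serum replicates differed from each other by more than those of Dusp6, yet both stood above both 2i/LIF libraries (-3.96 ± 0.50, adjusted p = 0.00095). Dusp4 and the ETS factor Etv4 were 10.2-fold and 5.66-fold lower. Spry2 fell by 0.71 on the log2 scale. The immediate-early gene Fos went the other way, with 338 and 442 in 2i/LIF against 142 and 163 in LIF/serum, 2.56-fold higher. The phosphatase gene Dusp14 was 2.16-fold higher. The number of lower members was 8 without 2i/LIF replicate 2 and 8 without LIF/serum replicate 1, and that of higher members between 0 and 1 without any of the 4 libraries. The call of Fos was lost without 2i/LIF replicate 2 (adjusted p = 0.0536), that of Spry2 without 2i/LIF replicate 2 or LIF/serum replicate 1 (adjusted p up to 0.114) and that of Dusp14 without any of the 4 libraries (adjusted p up to 0.204).

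Pluripotency genes were called in both directions. Of 18 naive factors, 5 were higher in 2i/LIF and 4 lower. Nanog had 61471 and 63425 normalised counts in 2i/LIF against 32666 and 31737 in LIF/serum, 1.94-fold higher (adjusted p = 0.000457). Tfcp2l1, a naive transcription factor downstream of LIF, had 36672 and 39513 against 12054 and 10326. Dppa3 (Stella), which guards maternal methylation marks, had 6049.8 and 7726 against 190.4 and 277, the largest increase of the naive list at 29.5-fold (log2 4.88 ± 0.38). Each of these 3 genes had its media well apart. Prdm14, which represses FGF receptor genes and de novo methyltransferases, was 2.08-fold higher. Klf4 had 12804 and 13399 against 13747 and 11298 and Esrrb 4839 and 5532 against 6799 and 5515, and neither passed the test. Zfp42 (Rex1), a zinc finger gene of naive cells, was 1.46-fold lower in 2i/LIF. Core and associated factors were lower or did not pass: of 15 genes, 0 were higher and 9 lower. Pou5f1 (Oct4) had 17803 and 19639 in 2i/LIF against 34312 and 36289, 1.89-fold lower (adjusted p = 0.00168). Sox2 was 1.29-fold lower (adjusted p = 0.0477) and Sall4, a zinc finger partner of Pou5f1, 2.18-fold lower. Lin28a, which blocks maturation of let-7 microRNAs, had 2235 and 862 against 10920.0 and 10345, with 2i/LIF replicates that differed from each other. Sox2 did not pass without any 1 of the 4 libraries (adjusted p up to 0.234) and Zfp42 without any but LIF/serum replicate 2 (up to 0.206). The 4 lower naive factors came to 2 without 2i/LIF replicate 1.

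Formative genes were mostly lower in 2i/LIF. Of 23 tested members, 14 were lower, 13 of them at least 2-fold, and 2 higher, with a median log2 fold change of -1.22. Fgf5, the classical mark of the post-implantation epiblast, had 0 counts in both 2i/LIF libraries and 35.4 and 19.5 normalised counts in LIF/serum, at least 9.38-fold lower against a floor of 3 counts per library. Trh, the thyrotropin-releasing hormone gene, had 1709.9 and 2032 against 19078 and 16069. Otx2, a driver of the formative state, was 2.40-fold lower. Zic2 and Zic5, neighbouring zinc finger genes on chromosome 14, were the higher members: Zic2 had 861 and 1084 against 260.2 and 233 (3.94-fold) and Zic5 was 2.62-fold higher. Of the genes that write DNA methylation, those for de novo methylation were lower and that for its maintenance higher. Dnmt3l, the cofactor of de novo methylation, had 3459.7 and 2884 in 2i/LIF and 15637 and 17271 in LIF/serum, 5.19-fold lower. Dnmt3a and Dnmt3b, the de novo methyltransferases, were 3.84-fold and 2.33-fold lower, and the serum replicates of Dnmt3a, 6178 and 2873, differed from each other. The maintenance enzyme Dnmt1 had 16727 and 18274 against 12125 and 10021, 1.58-fold higher, and its recruiter Uhrf1 was 1.76-fold higher. The call of Dnmt1 was lost without replicate 2 of either medium (adjusted p up to 0.0834). Over the 16 genes of DNA methylation and demethylation, 2 were higher and 4 lower.

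**Figure D2:**
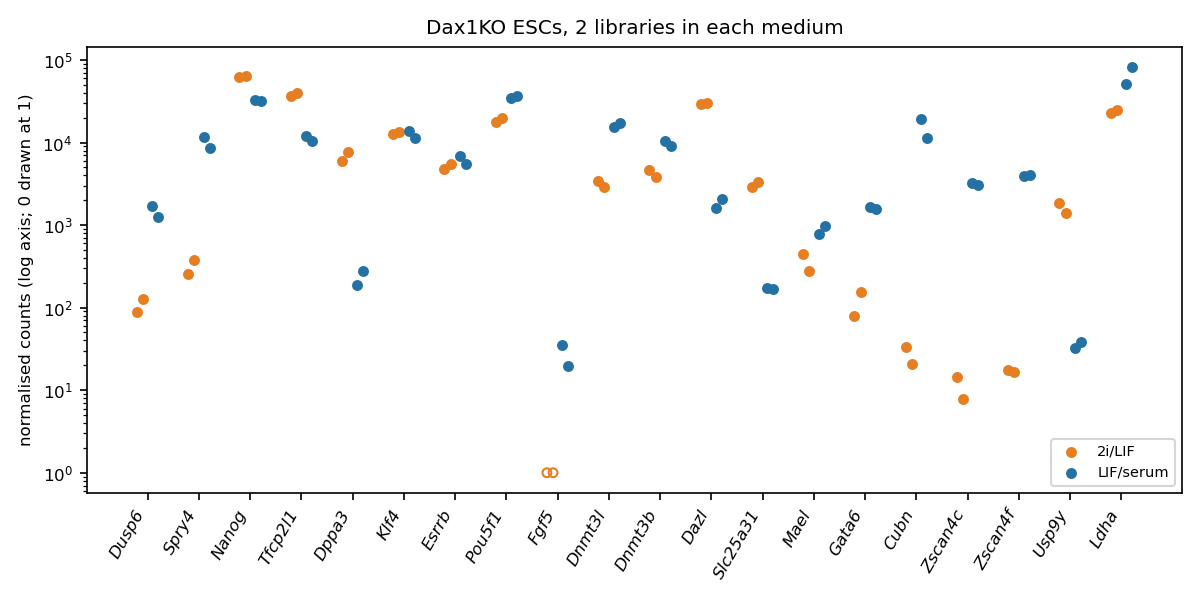
Normalised counts (log axis) of 20 genes in the 4 Dax1KO libraries, 1 point a library, orange for 2i/LIF and blue for LIF/serum; genes are grouped by list, and a value of 0 is drawn at 1 with an open marker. The media overlap for Klf4 and Esrrb and for no other gene drawn.

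Germline genes that adult tissues keep silent by promoter methylation were mostly higher in 2i/LIF. Of 24 genes, 16 were higher, 11 of them at least 2-fold, and 2 lower. Dazl, an RNA-binding protein of germ cells, had 29031 and 30472 normalised counts in 2i/LIF and 1626 and 2052 in LIF/serum (log2 4.02 ± 0.19, adjusted p = 1.97e-05). Slc25a31, the germ cell ADP/ATP carrier of mitochondria, had 2907 and 3337 against 174 and 168. Both genes had replicates close together and media more than 10-fold apart. Asz1, a piRNA pathway protein, was 13.4-fold higher and Brdt, a bromodomain protein of spermatids, 10.9-fold higher. The lower members were Mael, a piRNA pathway protein, with 441 and 275 against 784 and 988, and Ddx4 (Vasa), with 513 and 430.1 against 625 and 852, whose call was lost without any library but LIF/serum replicate 1 (adjusted p up to 0.223). Outside this list, Stra8, which germ cells need to enter meiosis and which retinoic acid induces, had 1373 and 1202 against 150.2 and 215.

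Promoters of 4 of these genes are shown so that members that rose and Mael, a member that fell, can be read side by side. The sequences are from RefSeq on GRCm38.p6 and run 5′ to 3′ on the gene's strand over the 250 bases before its annotated start. Capitals mark CACGTG, the E-box bound by MAX and its partners, and GCGGGA or its complement TCCCGC, the motif of E2F6; these factors belong to the Polycomb complex PRC1.6, which represses germline genes. Both strands were searched, CACGTG reads the same on either, and neither motif lies within the other.
Slc25a31, chr3:40708621-40708870, plus strand: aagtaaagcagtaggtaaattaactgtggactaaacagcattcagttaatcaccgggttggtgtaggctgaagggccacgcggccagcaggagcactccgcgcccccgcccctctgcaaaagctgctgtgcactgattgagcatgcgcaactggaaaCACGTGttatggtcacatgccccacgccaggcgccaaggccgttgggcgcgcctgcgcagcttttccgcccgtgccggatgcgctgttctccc
Brdt, chr5:107330944-107331193, plus strand: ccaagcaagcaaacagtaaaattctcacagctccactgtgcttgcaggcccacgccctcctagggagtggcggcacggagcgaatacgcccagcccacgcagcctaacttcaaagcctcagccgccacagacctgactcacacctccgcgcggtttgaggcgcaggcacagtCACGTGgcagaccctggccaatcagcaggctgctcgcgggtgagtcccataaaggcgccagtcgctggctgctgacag
Dazl, chr17:50293621-50293870, minus strand: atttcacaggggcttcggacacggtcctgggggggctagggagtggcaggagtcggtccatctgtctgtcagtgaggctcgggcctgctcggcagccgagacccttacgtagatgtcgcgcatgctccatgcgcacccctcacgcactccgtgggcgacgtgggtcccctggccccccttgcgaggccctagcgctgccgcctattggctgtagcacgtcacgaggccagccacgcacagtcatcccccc
Mael, chr1:166238745-166238994, minus strand: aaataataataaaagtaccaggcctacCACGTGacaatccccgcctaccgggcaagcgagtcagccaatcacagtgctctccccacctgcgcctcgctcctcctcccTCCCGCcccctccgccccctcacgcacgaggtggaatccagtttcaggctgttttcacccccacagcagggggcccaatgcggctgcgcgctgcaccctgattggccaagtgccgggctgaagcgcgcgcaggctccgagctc

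Promoters were found for 21 of the 24 germline genes. CACGTG occurred in 13 of these 21 (61.9%) and in 8.17% of the promoters of 12038 tested protein-coding genes. Among the 14 with a promoter that were higher in 2i/LIF, 8 held it. It stood in the windows of Slc25a31 and Brdt, which rose, and of Mael and Ddx4, which fell, and the window of Dazl held no match. GCGGGA occurred in 5 of 21 (23.8%) and in 28.8% of tested protein-coding genes. Both motifs stood together in 4 of 21 and in 2.64% of tested protein-coding genes. Mael and Ddx4, the lower members, held both, as did 2 of the 14 higher ones. The median number of CpG dinucleotides in the window was 16 for the germline list and 15 for all tested protein-coding genes. These matches describe the letters of the windows, and binding was not measured.

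Primitive endoderm genes were lower in 2i/LIF and higher in LIF/serum. This lineage forms the yolk sac lining beside the epiblast, and GATA factors drive it. Of 21 tested members of 22 listed, 18 were lower in 2i/LIF, all at least 2-fold, and 0 were higher, with a median log2 fold change of -3.50; the count of 18 was the same without any 1 of the 4 Dax1KO libraries. Gata6 had 79.8 and 155 normalised counts in 2i/LIF and 1665 and 1550.3 in LIF/serum (-3.77 ± 0.32, adjusted p = 0.00016). Gata4 had 309 and 326 against 2352 and 2069, 6.95-fold lower. Sox17, a later factor of this lineage, had 41.8 and 44.0 against 145 and 142, 3.35-fold lower and at a low level in both media. The media did not overlap for these 3 genes. Cubn, the cubilin receptor by which visceral endoderm takes up nutrients, had 33.1 and 20.5 against 19333 and 11433, 571-fold lower. Sox7, Pdgfra and the endocytic adaptor Dab2 were 34.9-fold, 8.16-fold and 12.7-fold lower. Col4a1, a collagen of the basement membrane that this lineage secretes, had 1426 and 2034 against 36980.0 and 29660.0, and was among the 5 largest losses of normalised counts of all genes. Ttr, the thyroid hormone carrier, had 0 counts in 2i/LIF and 90.9 and 54.6 normalised counts in LIF/serum, at least 24.9-fold lower. In such bulk samples, fewer cells of a type and less RNA per cell cannot be told apart.

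Genes of the 2-cell-like state, a rare state of ESCs that transcribes genes of the cleavage embryo, were lower in 2i/LIF. Of 20 tested members, 18 were lower in 2i/LIF and 0 higher, with a median log2 fold change of -5.46, or -4.93 with the 5 members at 0 in 1 medium set to their bounds. With at least 10 counts required in every Dax1KO library, 7 members were left, 5 of them lower, with a median of -2.27, beside -3.05 for primitive endoderm genes under the same limit. Zscan4c, of the zinc finger family that marks this state, had 14.6 and 7.82 normalised counts in 2i/LIF and 3276 and 3049.9 in LIF/serum (-8.12 ± 0.40, adjusted p = 2.09e-05). Zscan4f had 17.5 and 16.6 against 3987 and 3991, and Zscan4d 7.78 and 3.91 against 2122 and 2004. Zscan4a and Zscan4b had 0 counts in 2i/LIF and were at least 845-fold and at least 608-fold lower. The copies of this family are nearly identical in sequence, so the counting may have divided reads among them and single members are uncertain. The pattern was shared by all 6 Zscan4 genes of the list, a to f.

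The largest increases were genes at 0 in the LIF/serum libraries. Among protein-coding DEGs with at least 100 normalised counts in both libraries of the higher medium, 8 of the 10 largest increases by fitted fold change were on the X chromosome, and all 10 had 0 counts in both LIF/serum libraries. Magea6, a member of the Mage family of cancer and testis genes, had 390.0 and 474 normalised counts in 2i/LIF, at least 149-fold higher, and Magea10 378 and 281, at least 114-fold higher. Rhox2e and Rhox2d, homeobox genes of the reproductive cluster on the X chromosome, were at least 136-fold and at least 103-fold higher. Gm15114, Gm15085, Gm15091 and Gm15093 on the X chromosome, which share nearly identical transcripts, were at least 297-fold, 163-fold, 152-fold and 97.4-fold higher. The autosomal genes were Gsta2, a glutathione transferase, at least 97.3-fold higher, and Dppa1, at least 72.9-fold higher. Magea6, the Rhox2 genes and Gsta2 also have near-identical copies, so their values are uncertain.

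The 10 largest decreases, by the same limits (Zscan4a is annotated as a pseudogene and so is not among them), had 0 counts in both 2i/LIF libraries. They comprised Zscan4b and the Zscan4 relatives Zscan4-ps1, Zscan4-ps2 and Zscan4-ps3, with 972 to 3005 normalised counts in LIF/serum. The others were Lgals2, a galectin (1147 and 1044, at least 375-fold lower), Car4, a membrane carbonic anhydrase (861 and 1128, at least 340-fold), Gm12794 (289 and 299), whose transcript has a near-identical copy in Gm12800 and whose value is therefore uncertain, Tfec, a basic helix-loop-helix factor (281 and 293), Clic5, a chloride channel protein (202 and 279), and S100g, a calcium-binding protein (272 and 189).

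Genes of the sex chromosomes were higher in 2i/LIF more often than lower. Of 865 tested X-linked genes, 282 (32.6%) were higher in 2i/LIF and 75 (8.67%) lower, with a median log2 fold change of 0.27, beside 14.4% and 14.0% of autosomal genes and a median of 0.01. Among the 212 X-linked genes with a mean of at least 1000 normalised counts, 63 were higher and 22 lower, with a median of 0.14. Of 31 tested Y-linked genes, 17 were higher and 1 lower, and many of them are copies of multigene families. Over all 31 the median log2 fold change was 4.32, and among the 6 with a mean of at least 1000 normalised counts it was 0.74, with 2 higher and 1 lower. Usp9y, a deubiquitinase, had 1863 and 1412 normalised counts in 2i/LIF against 32.5 and 38.0 in LIF/serum (log2 5.53 ± 0.26, adjusted p = 1.97e-05). Uba1y, a ubiquitin-activating enzyme, had 7271 and 7286 against 713 and 633. Kdm5d, a histone demethylase, was 10.8-fold higher. Each of these had its media far apart. Ddx3y, an RNA helicase, had 1561 and 1504 against 1094 and 1323, and Uty, a relative of Kdm6a, 444 and 452 against 612 and 585, and neither passed the test. Eif2s3y, a translation initiation factor, was 2.20-fold higher. Xist, the RNA that coats an inactive X chromosome, was low in both media, with 152 and 152 against 553 and 364 normalised counts; it overlaps Tsix, from which unstranded reads cannot be told apart.

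**Figure D3:**
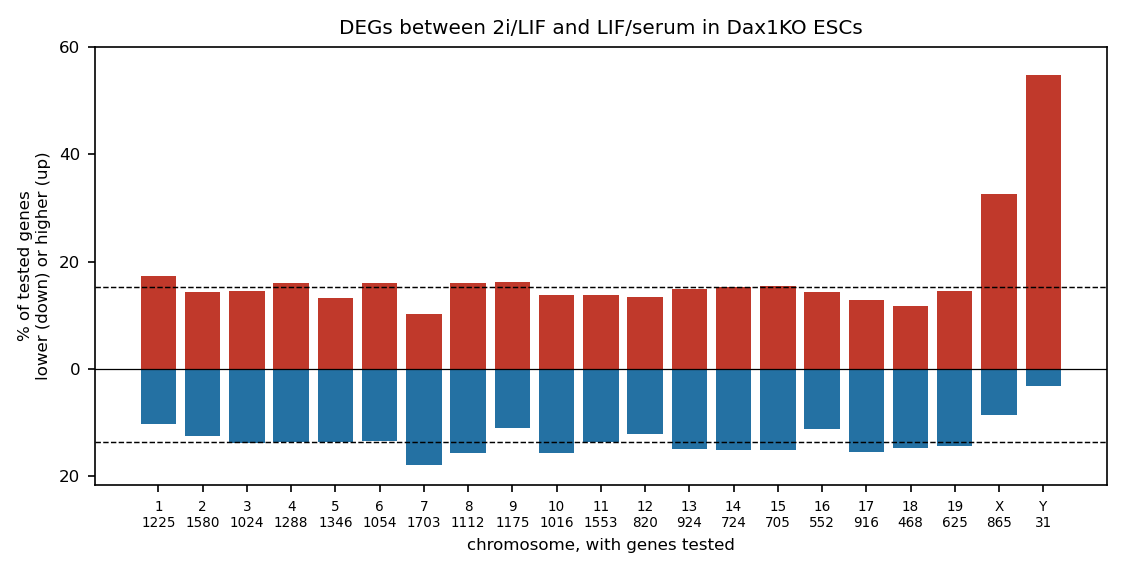
Percentage of tested genes of each chromosome that were higher (red, upward) or lower (blue, downward) in 2i/LIF than in LIF/serum in Dax1KO ESCs, with the number of genes tested under each chromosome; dashed lines mark the 15.2% and 13.7% of all genes. Chromosomes X (32.6% higher) and Y (54.8% higher) stand above the autosomes.

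Wnt target genes were called in both directions. Of 20 tested members, 4 were higher in 2i/LIF and 7 lower. Axin2, the feedback gene most used as a Wnt readout, had 419 and 428 normalised counts in 2i/LIF and 646 and 597 in LIF/serum, and did not pass the test (adjusted p = 0.0781). Lef1, a partner of β-catenin, had 13.6 and 15.6 against 185 and 570.4, 25.6-fold lower with serum replicates that differed from each other. Dkk1, a secreted Wnt inhibitor, had 13.6 and 5.86 against 684 and 620.1, 66.1-fold lower. Sp5, another direct target, was 4.37-fold higher, with 172 and 175 against 34.4 and 44.9, and did not pass without LIF/serum replicate 1 (adjusted p = 0.0646).

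Genes of BMP, Nodal and LIF signalling moved in part. Of 17 tested BMP and Id genes, 4 were higher and 5 lower. Id1, a direct BMP target, had 418 and 386 normalised counts in 2i/LIF and 1599.5 and 1897 in LIF/serum (-2.12 ± 0.18, adjusted p = 0.000165), whereas Id3 had 703 and 531 against 665 and 596 and Id2 266 and 324 against 285 and 537, and neither passed. Bmp4 itself was 8.21-fold lower in 2i/LIF. Without 1 library the 5 lower members came to between 3 and 4, and the 4 higher members to 1 without either 2i/LIF library. Of 15 tested genes of the Nodal pathway, 1 was higher and 6 lower, the former 0 without 2i/LIF replicate 2 or LIF/serum replicate 1. Lefty1, a Nodal antagonist, had 98.2 and 219 against 905 and 758, 5.24-fold lower, and Nodal was 2.04-fold lower, while Lefty2, with 1354 and 4176 against 7117 and 6862, did not pass. LIF was present in both media, and of 16 LIF and STAT3 response genes 5 were higher and 2 lower in 2i/LIF. Socs3, the feedback inhibitor of LIF signalling, had 11919 and 11299 against 8463 and 11106 and did not pass. The kinase Pim1 was 2.11-fold and Stat3 1.495-fold higher, the latter not without replicate 2 of either medium (adjusted p up to 0.0759). The 5 higher members of this list came to 3 without either replicate 2. Of 32 tested serum response, actin and YAP/TEAD genes, 7 were higher and 8 lower. Ankrd1, a YAP target, had 0 counts in 2i/LIF and 21.05 and 62.4 normalised counts in LIF/serum, while Ccn2, another YAP target, was 2.95-fold higher in 2i/LIF, with 846 and 1308 against 350.1 and 379. Actb, the cytoskeletal actin, was 1.54-fold higher in 2i/LIF. Without 2i/LIF replicate 1 the 8 lower members of this list came to 2, and the 7 higher ones to 4; without 2i/LIF replicate 2 or LIF/serum replicate 1 the lower members came to 3, and without LIF/serum replicate 2 to 4.

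Lineage lists other than primitive endoderm were mixed. Of 18 tested neural genes, 7 were higher in 2i/LIF and 3 lower. Nes, the intermediate filament of neural progenitors, had 2616 and 2798 normalised counts in 2i/LIF and 447 and 424 in LIF/serum, 6.22-fold higher. Pax6, a neural and eye transcription factor, was at a low level, with 147 and 129 against 45.9 and 32.2, 3.52-fold higher. Without 2i/LIF replicate 2 or LIF/serum replicate 1 the 7 higher neural genes came to 4, and the 3 lower ones to 1 without either 2i/LIF library or LIF/serum replicate 2. Of 23 tested mesoderm and primitive streak genes, 2 were higher, 5 lower and 16 did not pass. Gsc, the homeobox gene of the organiser, had 414 and 486 against 17.2 and 26.3, 20.6-fold higher in 2i/LIF. Meox1, a homeobox gene of the somites, had 0 counts in 2i/LIF and 79.4 and 72.2 normalised counts in LIF/serum, at least 25.9-fold lower. The 2 higher mesoderm genes came to 1 without any library but LIF/serum replicate 2. Among 16 tested trophectoderm genes 4 were higher and 7 lower, and 2 and 5 without any 1 of the 4 libraries. Of 32 tested Hox genes, which Polycomb keeps silent in ESCs, 12 were higher in 2i/LIF and 2 lower. Hoxc12 had 136 and 201 against 19.1 and 41.0, and Hoxa11 went the other way, with 12.6 and 7.82 against 51.7 and 59.5. The 12 higher Hox genes came to 5 without either 2i/LIF library and to 7 without either LIF/serum library, and the 2 lower ones to 1 without any of the 4. Of 25 Polycomb subunits, 6 were higher and 5 lower. Phc1, of the canonical complex PRC1, had 5789 and 6202 against 27517 and 25876, 4.45-fold lower, and the PRC2 subunits Ezh2 and Suz12 were 1.34-fold and 2.22-fold higher. Without 2i/LIF replicate 2 the 6 higher and 5 lower Polycomb genes came to 3 each, and without 2i/LIF replicate 1 the lower ones to 3. Ezh2 did not pass without any 1 of the 4 libraries (adjusted p up to 0.19) and Suz12 without any but LIF/serum replicate 2 (up to 0.0912).

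Metabolic genes were described by pathway. In the list for cholesterol and fatty acid synthesis, 13 of 34 were higher in 2i/LIF and 5 lower. Scd1, the desaturase that makes monounsaturated fatty acids, had 23041 and 31208 normalised counts in 2i/LIF and 6764 and 7285 in LIF/serum, 3.86-fold higher (adjusted p = 0.000327). Scd2 had 47571 and 62797 against 26477 and 26992. Insig1, a sterol sensor and SREBP target, was 2.56-fold higher. Among the 5 lower members, Mvd, which makes isopentenyl diphosphate, was 1.73-fold and Lss, which makes lanosterol, 1.77-fold below LIF/serum. The 13 higher genes came to 6 without 2i/LIF replicate 2 and to 8 without LIF/serum replicate 1, and the 5 lower ones to 3 without either replicate 2. Of 30 glycolysis and hypoxia response genes, 13 were lower in 2i/LIF and 2 higher. Ldha, lactate dehydrogenase, had 22738 and 24895 against 50965 and 81642, and Pkm, pyruvate kinase, 54804 and 54574 against 95357 and 125450.0. Both belong to the 5 largest losses of normalised counts. The serum replicates differed in this group. Bnip3, a mitophagy receptor induced by hypoxia, had 3138 in replicate 1 and 9205 in replicate 2. The glucose transporter Slc2a1 had 13826 and 30677. Control cells of LIF/serum had 1891 and 6178 for Bnip3. The whole list summed to 476971 and 704326 normalised counts in LIF/serum replicates 1 and 2 and to 311468 and 335649 in 2i/LIF. In control cells it summed to 426563 and 583982 in LIF/serum and to 282797 and 354541 in 2i/LIF. Replicate 2 was thus higher in all 4 groups. With the replicate number as a block in the fit, 17 genes of the list were lower and 3 higher. The 13 lower genes came to 4 without 2i/LIF replicate 1, to 7 without 2i/LIF replicate 2 and to 7 without LIF/serum replicate 2, and the 2 higher ones to 1 without any of the 4. The call of Ldha was lost without 2i/LIF replicate 1 (adjusted p = 0.0558), and Bnip3 and Slc2a1 did not pass without any library but LIF/serum replicate 1 (adjusted p up to 0.134 and 0.255). Of 75 nuclear-encoded subunits of oxidative phosphorylation, 6 were higher and 0 lower. The higher members numbered 0 without 2i/LIF replicate 1, 2i/LIF replicate 2 or LIF/serum replicate 1 and 1 without LIF/serum replicate 2, but 12 in the fit of the Dax1KO libraries alone, and DESeq2 called 7 higher and 2 lower. All mitochondrially encoded genes had 0 counts in every library, so they give no measurement. Of 79 ribosomal protein genes 76 did not pass, with 2 higher and 1 lower; the higher ones came to 1 without any library but LIF/serum replicate 2 and the lower one to 0 without any but LIF/serum replicate 1. Of 30 genes of the ATF4 stress response and serine synthesis 6 were higher and 3 lower, the former 3 without 2i/LIF replicate 2.

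Myc, the growth-promoting transcription factor, had 65.2 and 49.8 normalised counts in 2i/LIF and 1372 and 838 in LIF/serum, 19.2-fold lower, whereas its relative Mycn had 4167 and 4293 against 3331 and 3144, 1.31-fold higher. Over the 22 genes of the Myc network 3 were higher and 7 lower, and without 1 library between 0 and 1 were higher and between 3 and 5 lower. Among 22 G1 genes 7 were higher and 6 lower, with 2 to 5 higher and 1 to 3 lower without 1 library. Ccnd2, a D-type cyclin, had 39.9 and 57.7 against 276 and 325, 6.14-fold lower, and Ccnd1 was 1.54-fold lower. The cell cycle inhibitors Cdkn2a and Cdkn2b, which share a locus, were 1.92-fold and 2.12-fold higher in 2i/LIF. Of 34 p53 targets and BCL2 family genes 4 were higher, 7 lower and 23 did not pass, and the 4 higher ones came to 1 without any of the libraries other than 2i/LIF replicate 2, which left 2; the 7 lower ones came to 4 without 2i/LIF replicate 1. Cdkn1a, the p53 target p21, had 5971 and 5209.5 against 4766 and 5412 and did not pass. Bcl2l11 (Bim), a killer protein of this family, was 2.35-fold lower in 2i/LIF and Mcl1, a survival protein, 2.14-fold lower. Mycn and Ccnd1 did not pass without any 1 of the 4 libraries (adjusted p up to 0.135 and 0.182). Bcl2l11 did not pass without 2i/LIF replicate 1 or LIF/serum replicate 2 (up to 0.116), nor Cdkn2b without 2i/LIF replicate 2 or LIF/serum replicate 1 (up to 0.0701).

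Further groups were specific gene families. Replication-dependent histone genes, whose transcripts end in a stem-loop and mostly lack a poly(A) tail, were lower in 2i/LIF for 29 of 56 and higher for 0. Hist1h1d, a linker histone, had 3.89 and 0.98 normalised counts against 37.3 and 44.9. That count came to between 7 and 15 without 1 library, with 7 without 2i/LIF replicate 2 and 9 without LIF/serum replicate 2, and Hist1h1d did not pass without 2i/LIF replicate 2 (adjusted p = 0.0823). Of 24 clustered protocadherins, which neurons use as cell surface barcodes, 7 were lower and 0 higher. Pcdhga6 had 9.73 and 2.93 against 852 and 816, while Pcdhgb2, of the same cluster, had 30.6 in LIF/serum replicate 1 and 856 in replicate 2. Genes of this cluster share exons, so reads may have been assigned to more than a single member, and the 7 lower ones came to 3 without 2i/LIF replicate 1 and to 2 without 2i/LIF replicate 2. Pcdhga6 did not pass without either 2i/LIF library (adjusted p up to 0.104) and Pcdhgb2 without any but LIF/serum replicate 1 (up to 0.135). Of 31 tested imprinted genes 8 were higher and 11 lower, the latter 6 to 8 without 1 library. Peg10, a paternally expressed gene of retrotransposon origin, had 3762 and 6245 against 53503 and 47244. H19, a maternally expressed RNA, had 338 and 33.2 in the 2i/LIF replicates and 4923 and 4151 in LIF/serum. Meg3, a maternally expressed RNA of the Dlk1 locus, was 2.74-fold higher in 2i/LIF. Among genes of retinoic acid signalling, 2 of 14 tested were higher and 2 lower. The receptor gene Rarg had 1208 and 1133 against 10478 and 9278, 8.44-fold lower, and Stra6, the cellular receptor for retinol-binding protein, was 25.6-fold lower, whereas Aldh1a3, which makes retinoic acid, had 497 and 513 against 44.0 and 20.5. Of 28 tested collagen, laminin and matrix genes 8 were higher and 9 lower, of 21 genes of the epithelial and mesenchymal state 5 and 6, of 18 nuclear receptors and Dax1 partners 1 and 4 (0 higher without 2i/LIF replicate 2 and 2 without LIF/serum replicate 2), and of 10 Pramel and Prame-like genes 5 and 2. The 5 higher and 6 lower genes of the epithelial and mesenchymal state came to 1 and 4 without replicate 2 of either medium, and the 5 higher ones to 2 without LIF/serum replicate 1.

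By the change in normalised counts rather than by fold, the 5 largest gains in 2i/LIF were Hsp90aa1, Pabpc1, Nanog, Scd2 and Dazl. Hsp90aa1, the inducible cytosolic HSP90 chaperone, had 197040.0 and 177540.0 normalised counts against 98178 and 103210.0, and Pabpc1, the poly(A)-binding protein, was 1.55-fold higher. The 5 largest losses were Pkm, Peg10, Ldha, Mkrn1 and Col4a1, of which Mkrn1, a ubiquitin ligase, had 12143 and 12580.0 against 46435 and 59835.

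The control libraries allow a test of whether the medium shift of Dax1KO cells differed from that of control cells, whose 4 libraries share none with it. In control cells 4210 genes (20.3%) were higher in 2i/LIF and 3431 (16.5%) lower. Across the 20749 genes, which are not independent, the shifts of the genotypes had a Pearson correlation of 0.70 and a Spearman correlation of 0.67. The DEGs shared 4302 genes, 71.7% of the Dax1KO list and 56.3% of the control list, of which 4237 moved the same way and 65 the opposite way. The SD over genes of the log2 shift was 1.33 in Dax1KO and 1.36 in control cells. The test of the difference itself called 596 genes (2.87%), with 171 higher and 425 lower in the direction of Dax1KO minus control. Without any 1 of the 8 libraries this count fell to between 36 and 344, with 36 without 2i/LIF Dax1KO replicate 2 and 46 without 2i/LIF Dax1KO replicate 1; without a control library it was between 94 and 344. Of the 596, the shift was larger in Dax1KO cells for 114, smaller for 252 and of opposite sign for 230.

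**Figure D4:**
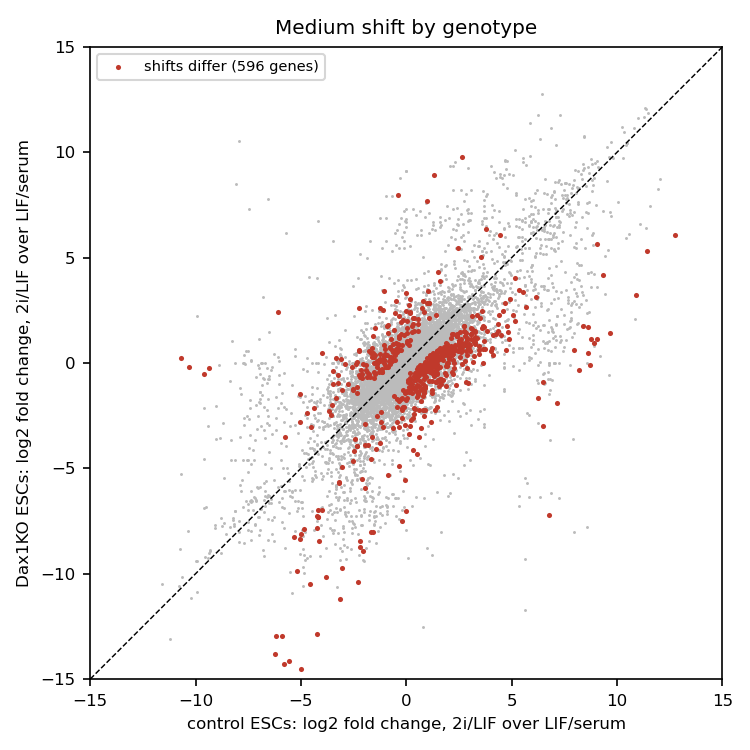
Log2 fold change between the media (2i/LIF over LIF/serum) in Dax1KO ESCs (vertical) against control ESCs (horizontal) for 20749 genes, 1 grey point a gene, with the 596 genes whose shifts differ between the genotypes in red. The dashed line marks equal shifts, and the shifts have a Pearson correlation of 0.70.

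The 8 genes with the smallest p for this difference, among genes with at least 100 normalised counts in both libraries of some group, were Slc1a1, Dpp4, Nptx2, Tmem231, Dcdc2a, Htra1, Gm7972 and Pou2f3. Slc1a1, a glutamate transporter, had 2008 and 1966 normalised counts in control cells of 2i/LIF and 115.6 and 131.2 in LIF/serum, but 1469.7 and 1471 against 953 and 1023 in Dax1KO cells. The shift was log2 4.01 in control and 0.57 in Dax1KO cells (adjusted p of the difference = 0.00152), and the shift in Dax1KO cells did not pass without either 2i/LIF library or LIF/serum replicate 1 (adjusted p up to 0.0819). Tmem231, a protein of the cilium transition zone, and Pou2f3, the tuft cell POU factor, showed the same form, with control shifts of 2.47 and 2.81 against 0.59 and 0.08. Dpp4, a membrane peptidase, had 788 and 662 against 997 and 854 in control cells and 58.4 and 74.3 against 2145 and 1808 in Dax1KO cells. Nptx2, a neuronal pentraxin, and Htra1, a secreted protease, were higher in 2i/LIF in control cells (1.24 and 1.59) and lower in Dax1KO cells (-1.41 and -0.74). All 8 genes passed this test in each of the 8 fits without 1 library, with adjusted p up to 0.0405.

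**Figure D5:**
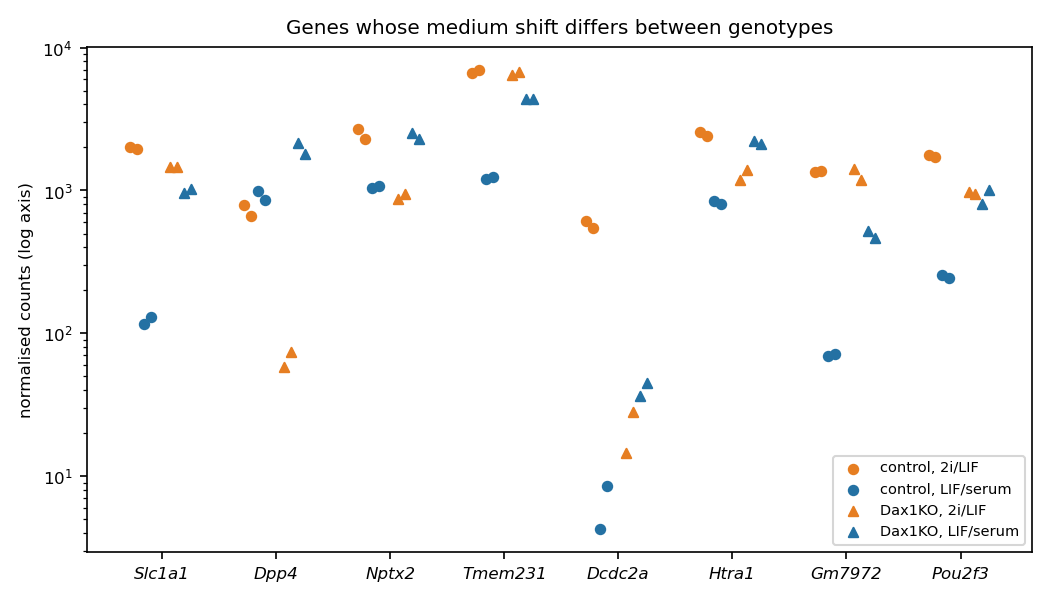
Normalised counts (log axis) of the 8 genes with the smallest p for a difference between the shifts, in control (circles) and Dax1KO (triangles) ESCs, orange for 2i/LIF and blue for LIF/serum, 1 point a library. In Slc1a1, Tmem231, Dcdc2a, Htra1, Gm7972 and Pou2f3 the control libraries of LIF/serum lie lowest, and in Dpp4 and Nptx2 the Dax1KO libraries of 2i/LIF do.

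Among the lists, the primitive endoderm shift had a median of -3.50 in Dax1KO cells and -1.61 in control cells, and 5 of its 21 members passed the test of the difference, beside 2.87% of all genes for this and the following lists, Gata4 and Gata6 among them. Gata6 shifted by -3.77 in Dax1KO and -1.26 in control cells (adjusted p of the difference = 0.0286) and Gata4 by -2.80 and -1.197 (0.0161), and either passed in 2 of the 8 fits without 1 library. The list summed to 166247 and 134259 normalised counts in Dax1KO cells of LIF/serum and to 95495 and 68558.5 in control cells, and to 39578.5 and 41170.1 against 56334 and 53728 in 2i/LIF. Of the 2-cell-like list 9 of 20 passed. Among them were the Zscan4 genes a to f, whose copies are nearly identical and cannot be taken as separate members. Zscan4a and Zscan4b had 0 counts in Dax1KO cells of 2i/LIF, where the fitted difference depends on the prior count. Zscan4c shifted by -8.12 and -4.98 (0.0229), with 3276 and 3049.9 against 3349 and 4523 normalised counts in LIF/serum and 14.6 and 7.82 against 89.2 and 160 in 2i/LIF for Dax1KO and control cells. Hox genes had a median shift of 1.05 in Dax1KO and 3.19 in control cells, and 6 of 32 passed. For germline genes the medians were 0.91 and 1.65, and 6 of 24 passed. Of collagen, laminin and matrix genes 5 of 28 passed and of formative genes 4 of 23. Of the core pluripotency, Polycomb and glycolysis lists 0 passed. For cholesterol and fatty acid synthesis the medians were 0.28 and 0.71, with 7 of 34 past the test, and Insig1 shifted by 1.36 and 2.23. The Dax1KO median of this list came to 0.41 without 2i/LIF replicate 1 and to 0.08 without 2i/LIF replicate 2. For ERK feedback genes the medians were -0.62 and -0.79 and 2 of 27 passed, Spry2 with -0.71 and -2.12. Id1 shifted by -2.12 and -4.36, and Lefty1 by -2.39 and -4.71. Zic2, Zic5 and Pax6 shifted by 1.98, 1.39 and 1.82 in Dax1KO cells and by 0.02, -0.23 and -0.86 in control cells. Cdkn1a shifted by 0.14 and 1.51, Mycn by 0.39 and -0.92, Actb by 0.62 and -0.24, and Hsp90aa1 by 0.90 and -0.40. Of these genes Id1 and Mycn passed in 6 of the 8 fits without 1 library, Zic5 in 4, Hsp90aa1 in 3, Zscan4c, Zic2 and Cdkn1a in 2, Lefty1 and Pax6 in 1, and Insig1, Spry2 and Actb in 0.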

How the data were processed

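mRNA of 8 libraries was sequenced on the Illumina HiSeq platform (how mRNA was selected, and whether strand was kept, are not given in the sources used here), 2 in each of 4 groups formed from the labels (Control and Dax1KO ESCs in 2i/LIF and in LIF/serum). The authors deposited unnormalised counts per gene for each library, with 52550 genes listed. The submitters' processing notes name HISAT2 2.0.4, DESeq2 and the mm10 build; the counter and its annotation are not given in the sources used here. Gene identifiers were paired with symbols and positions by GENCODE M21 (GRCm38). From the counts, edgeR 4.0.16 in R 4.3.3 kept 20749 genes (filterByExpr), computed TMM factors and fitted 4 group means by the quasi-likelihood method. The biological coefficient of variation was 20.9% and the prior degrees of freedom 4.04, added to the 4 residual ones of the libraries. The contrast was 2i/LIF minus LIF/serum in Dax1KO cells, and its difference from the same contrast in control cells was called on the adjusted p alone. Tests were two-sided, with Benjamini-Hochberg adjustment over all genes tested. The code was tested on simulated data, where the share of false calls was above the threshold and most of the planted 2-fold changes were missed, so a gene that did not pass may still have changed. Genes at 0 in a medium are given as bounds against a floor of 3 counts per library, which covers counting error only. Every mitochondrially encoded gene is at 0 in all libraries. Among low deposited counts, multiples of 3 are more frequent than their neighbours in every library, which the sources used here do not explain, so values of a few counts are uncertain. Transcripts of different genes sharing at least 95% identity over most of the longest transcript (blastn 2.17.0) were taken as near-identical copies. Not every named gene with a match over part of its transcript is marked, so the values of other named genes may also hold reads of related sequences.

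The members and the gene lists were chosen with earlier results of these data known. Named genes were Nr0b1 and its neighbours, list members with the largest changes in each direction and those a list is known by, the 10 largest increases and decreases, the 5 largest gains and losses of counts, and the 8 genes with the smallest p for the difference between genotypes. The members a list is known by, the promoters shown, the motifs CACGTG and GCGGGA, and Stra8, the Y-linked genes and Xist were picked after their values had been seen. Alternatives were RLE size factors, no filter, at least 10 counts in every library, a replicate block, the Dax1KO libraries alone, DESeq2 1.42.0, a test against a fold of 2, unadjusted p, and leaving out each library. A fit without chromosome 6 genes was added after the data had been seen. With total counts of 35911384 to 37286251, a gene at 0 in a library is limited to under 3 counts of that total.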

Additional observations from a re-analysis of the deposited data

Results flagged for a closer look

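For 37 of the 150 named genes, the shift between the media differed between Dax1KO and control ESCs by edgeR's test of the difference (adjusted p of at most 0.05). The values are the log2 shift in Dax1KO cells minus that in control cells, so a negative value is a shift further toward LIF/serum in Dax1KO cells. No explanation of these differences was tested.

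The 8 genes with the smallest p were Slc1a1 (-3.43), Dpp4 (-4.54), Nptx2 (-2.65), Tmem231 (-1.88), Dcdc2a (-7.39), Htra1 (-2.34), Gm7972 (-2.87) and Pou2f3 (-2.73), and these passed in each of the 8 fits without 1 library. In the Zscan4 family, whose copies are nearly identical, the differences were -8.48 for Zscan4a, -7.56 for Zscan4b, -3.15 for Zscan4c, -4.31 for Zscan4d, -4.68 for Zscan4e, -2.99 for Zscan4f, -6.79 for Zscan4-ps1, -9.52 for Zscan4-ps2 and -8.58 for Zscan4-ps3. Zscan4a, Zscan4-ps2 and Zscan4-ps3 passed in all 8 fits without 1 library, and Zscan4c in 2. Car4 (-7.07) and Gm12794 (-8.05), the latter with a near-identical copy, had negative differences as well. Car4 and Zscan4-ps1 passed in 1 of these 8 fits and Gm12794, Zscan4b, Zscan4e and Zscan4f in 4, and Zscan4d in 6. For Car4, Gm12794, Zscan4a, Zscan4b and the 3 genes Zscan4-ps1 to Zscan4-ps3, which had 0 counts in Dax1KO cells of 2i/LIF, the fitted difference depends on the prior count and is no bound.

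Of primitive endoderm and germline genes, Gata4 (-1.60), Gata6 (-2.51), Dazl (-1.15) and Mael (-1.77) had negative differences. Of signalling genes, Id1 (2.25), Lefty1 (2.33) and Spry2 (1.41) had positive differences, as had the transcription factor genes Zic2 (1.96), Zic5 (1.62), Pax6 (2.68) and Mycn (1.30). Negative values were also found for Insig1 (-0.87), Mvd (-0.87) and Cdkn1a (-1.37), and positive ones for Actb (0.86), Hsp90aa1 (1.29), Meg3 (1.16) and Uty (1.12). Of these 18 genes none passed in all 8 fits without 1 library, Id1 and Mycn passed in 6, and Actb, Insig1, Mael, Mvd, Spry2 and Uty in 0.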

How the results depend on the processing

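The 5999 DEGs at a fold of 1.2 in Dax1KO cells stayed within 1.5 times under RLE size factors (6004), DESeq2 (6410), no filter (4649) and the other alternatives, except without 1 library, where 2986 to 3691 were called. The 3580 at a fold of 2 came to 1707 when tested against a fold of 2, and to between 2390 and 2787 without 1 library. The 596 genes whose shift differed between the genotypes were the least stable: the count was 119 without a filter, 1510 by DESeq2, 3970 at an unadjusted p of 0.05, and 36 to 344 without 1 library. The cause was not tested, beyond the fewer libraries of the last fits. No named gene reversed a call. Of the 137 named genes called of 150, 26 lost the call without at least 1 Dax1KO library, and 6 (Sox2, Mycn, Ezh2, Ccnd1, Dusp14 and Col1a2) without any of them. All kept it under DESeq2 and RLE. Without a filter, which tests more genes, 11 lost it (Suz12, Ezh2, Dusp14, Ddx4, Bcl2l11, Slc2a1, Zfp42, Ccnd1, Sox2, Bnip3 and Pcdhgb2), and with the Dax1KO libraries alone 2 did (Ddx4 and Zfp42) and Axin2 gained it. Of those that did not pass, Lefty2 passed without 2i/LIF replicate 2.

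The labels give the replicates numbers but not a shared origin. Deviations of same-numbered Dax1KO libraries had a correlation of -0.002 over the genes tested, and the numbers were not taken as pairs. The control libraries were not part of this correlation, so it cannot exclude a pattern shared by replicate number. The glycolysis and hypoxia response list summed higher in replicate 2 than in replicate 1 in all 4 groups, and the origin of this was not tested. With the number as a replicate block, the DEGs numbered 6075 at a fold of 1.2 and 3463 at a fold of 2, and 552 genes differed in their shift. Among named genes, the replicate block removed the call of Sox2 and added that of Lefty2.

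With 2 libraries a group, changes near the spread between replicates cannot be resolved, and genes below about 100 normalised counts carry larger counting error.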
